A study of Mus musculus with 15 samples.

Results

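The 7 goblet cell products Muc2, Tff3, Fcgbp, Zg16, Clca1, Agr2 and Spink4 were followed through bulk poly-A RNA-seq of mouse small intestinal organoids that overexpress the transcription factor SOX9. They were chosen by gene symbol, are 7 of the 78298 genes listed for every library, and all 7 were detected. Organoids are crypt-derived epithelial cultures from adult female C57BL/6J mice, and they hold stem, absorptive and secretory cells without other tissue. Each condition was 1 stable line made with lentivirus and antibiotic selection, sequenced as 3 libraries, so that 15 libraries in 5 conditions were compared. The control, Halo-NLS, carried L30prom_V5-Halo-GDGAGLIN-NLS_IRES_Puro, which is a nuclear HaloTag without SOX9. SOX9-Halo_budding carried L30prom_Sox9-GDGAGLIN-Halo-V5_IRES_Puro and SOX9-mEGFP_budding carried L30prom_Sox9-GDGAGLIN-mEGFP-V5_IRES_Puro, both while the organoids still grew with buds. SOX9-Halo_spheroid and SOX9-mEGFP_spheroid were the same constructs after longer culture, when the organoids had become round. The study counts SOX9-mEGFP_spheroid as an intermediate and places SOX9-Halo_spheroid last, in spheroid progression and in time in culture. Between the spheroids, line and stage therefore cannot be told apart. The L30 promoter that drives every transgene is weak and active in all cell types. The SOX9-Halo_spheroid line also carried L30prom_H2B-GDGAGLIN-mEGFP-V5_IRES_Zeo, and the SOX9-mEGFP_spheroid line carried L30prom_H2B-GDGAGLIN-mScarletI-V5_IRES_Neo. These histone reporters were absent from the budding lines and the control, so that morphology, time in culture and the second transgene cannot be told apart. The study describes the libraries of a condition as biological replicates, taken from organoids at nearby passages of the line. The p-values measure the spread between these libraries.

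Goblet cells are the mucus-secreting cells of the intestinal epithelium, formed from secretory progenitors that escape Notch signalling and express Atoh1, with Spdef acting later in their maturation. Their main product is the gel-forming mucin Muc2, which is folded and disulfide-linked in the endoplasmic reticulum with the help of Agr2, packed into granules and released to form the mucus layer. Fcgbp and Clca1 are abundant proteins of that mucus, Clca1 acting as a metalloprotease that processes it. Zg16 is a lectin-like protein that binds Gram-positive bacteria, Tff3 a trefoil peptide of epithelial repair, and Spink4 a Kazal-type protease inhibitor made by goblet cells.

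The 7 genes lie at separate loci, and none of their exons overlapped an exon of another gene in GENCODE M39 on GRCm39, the build of the count files. Muc2 (ENSMUSG00000025515) lies at chr7:141276583-141308430, Fcgbp (ENSMUSG00000047730) at chr7:27770661-27820287 and Zg16 (ENSMUSG00000049350) at chr7:126649302-126686500. Clca1 (ENSMUSG00000028255) lies at chr3:144709578-144738537, Tff3 (ENSMUSG00000024029) at chr17:31344280-31348620, Spink4 (ENSMUSG00000028415) at chr4:40920044-40931396 and Agr2 (ENSMUSG00000020581) at chr12:36042904-36054086. All are protein-coding. Muc2 and Fcgbp contain repeated domains and Clca1 has close relatives, so reads that align to several places were lost from them and their counts are uncertain to that extent.

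The start-proximal sequence is shown for the members with a RefSeq promoter entry, which were Muc2, Fcgbp and Agr2 (3 of 7). They are printed because all 7 genes were called lower in 1 condition. Each line is the 250 bases before the start, 5′ to 3′ on the plus strand of GRCm38.p6, an older build than that of the counts. The windows are chr7:141690090-141690339 for Muc2, chr7:28070986-28071235 for Fcgbp and chr12:35992675-35992924 for Agr2. Capitals mark exact matches, on either strand, to 6 short motifs: ACAATG and ACAAAG (SOX), TTTATG and TTTATT (CDX), CAGCTG (E-box) and CACCC (KLF).
Muc2: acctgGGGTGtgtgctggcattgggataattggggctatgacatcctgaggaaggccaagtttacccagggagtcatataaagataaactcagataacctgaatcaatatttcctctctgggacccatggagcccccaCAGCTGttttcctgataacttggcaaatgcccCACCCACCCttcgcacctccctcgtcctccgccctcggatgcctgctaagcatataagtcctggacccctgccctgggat 
Fcgbp: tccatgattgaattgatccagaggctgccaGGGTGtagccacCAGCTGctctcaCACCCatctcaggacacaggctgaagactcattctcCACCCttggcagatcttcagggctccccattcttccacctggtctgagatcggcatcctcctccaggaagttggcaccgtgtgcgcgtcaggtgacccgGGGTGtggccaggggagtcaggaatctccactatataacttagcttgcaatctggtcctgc 
Agr2: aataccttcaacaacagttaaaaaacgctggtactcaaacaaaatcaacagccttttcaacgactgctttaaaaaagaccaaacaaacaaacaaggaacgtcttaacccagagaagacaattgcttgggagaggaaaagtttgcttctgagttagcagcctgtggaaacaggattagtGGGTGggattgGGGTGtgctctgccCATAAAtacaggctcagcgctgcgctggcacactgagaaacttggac
CAGCTG stood 112 bases before the start in Muc2 and 208 bases before it in Fcgbp, and 13.0% of 32851 RefSeq windows of this length held it. CACCC or its reverse complement GGGTG was found 3 times in Muc2, 4 times in Fcgbp and 2 times in Agr2, against 52.0% of all windows with at least 1 match. TTTATG was matched once, on the minus strand of Agr2 at 47 bases before the start, and occurred in 10.8% of all windows. ACAATG (10.7% of all windows), ACAAAG (16.5%) and TTTATT (18.1%) had no match in these 3 windows. A match is a description of these letters and was not tied to binding.

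Each library held 28062722 to 40559766 counts on genes. Levels are given as CPM, the usual depth-normalised count, here after TMM scaling, which corrects for differences in library composition. At this depth 3 counts, the most that a count of 0 allows, correspond to 0.0903 CPM on average in SOX9-Halo_spheroid. The third Halo-NLS library stood apart, with at least 1 count on 40375 genes against 24214 to 34646 in the other 14 libraries, and results against Halo-NLS were also computed without it. Sox9 itself, where transgene and endogenous reads cannot be told apart, was at 15.3, 22.9 and 9.1 CPM in Halo-NLS. It was at 39.8, 314 and 204 CPM in SOX9-Halo_budding, with 339, 330.3 and 193 CPM in SOX9-mEGFP_budding. SOX9-Halo_spheroid had 314, 442 and 441 CPM of Sox9, and SOX9-mEGFP_spheroid had 260.0, 504 and 705 CPM. All SOX9 libraries thus lay above all control libraries, and the spheroids of either line overlapped their budding organoids. The first SOX9-Halo_budding library, at 39.8 CPM, was nearer to the highest control library (22.9 CPM) than to the others of its condition.

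The goblet cell products were close to absent from SOX9-Halo_spheroid and present in the other 4 conditions. Summed over the 7 genes they took 0.244% to 0.834% of the counts in Halo-NLS, 0.174% to 0.839% in SOX9-Halo_budding, 0.392% to 0.995% in SOX9-mEGFP_budding and 0.260% to 0.379% in SOX9-mEGFP_spheroid. In SOX9-Halo_spheroid they took 0.00171% to 0.00229%. In bulk RNA, fewer goblet cells and less of each RNA per goblet cell cannot be told apart. A gene was called changed at an adjusted p of at most 0.01 (edgeR quasi-likelihood test, Benjamini-Hochberg over 17560 genes tested), a log2 fold change of 1 or more in either direction, and a normalised count averaging 10 or more. All 7 products were called lower in SOX9-Halo_spheroid against Halo-NLS, where 15.3% of all genes tested were called lower and 13.6% higher. They were also all called lower against SOX9-Halo_budding (14.7% of all genes) and against SOX9-mEGFP_spheroid (9.58% of all genes called lower, 3.59% higher). In all 3 comparisons the SOX9-Halo_spheroid libraries lay below those of the other condition for 7 of 7 genes, as they did for 28.4%, 28.2% and 28.0% of all genes tested, in the same order. Their median log2 fold change against Halo-NLS was -10.02, or -9.49 with Zg16 set at its limit, beside -0.01 over all genes tested. SOX9-Halo_spheroid enters all 3 comparisons, so they are not independent of each other. With library sizes alone in place of TMM, the median of all genes against Halo-NLS moved to 0.28 and the calls from 2682 lower and 2392 higher to 2229 lower and 3102 higher, while all 7 products were called lower there too.

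**Figure D1:**
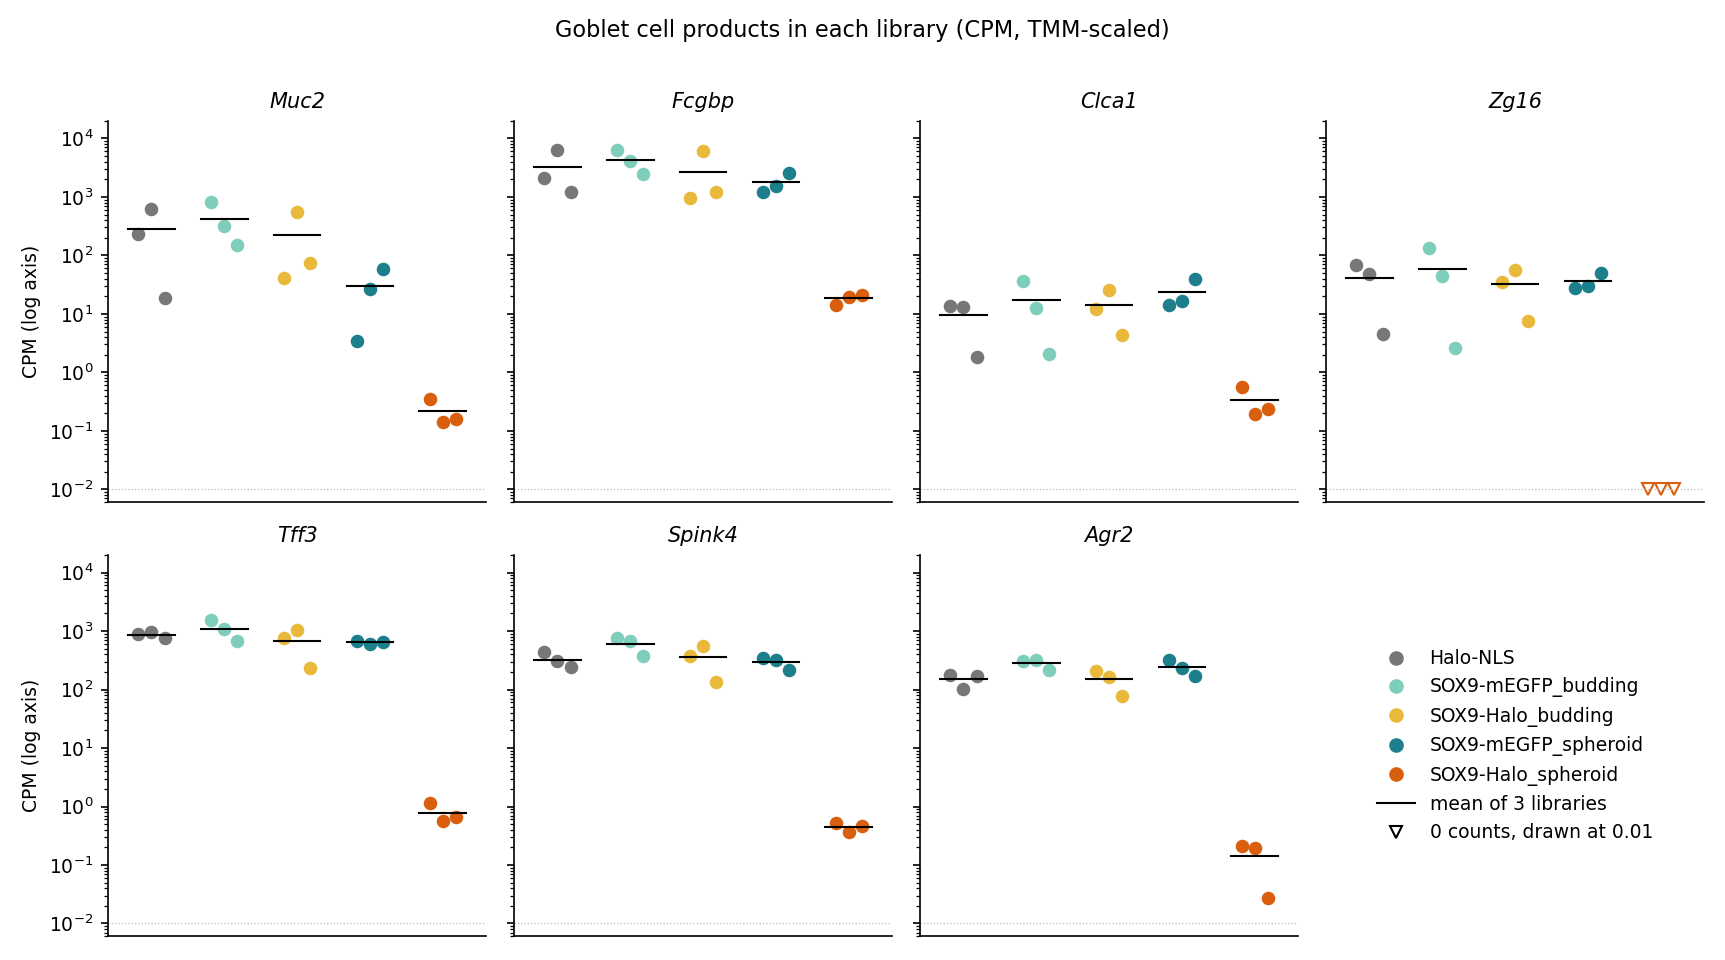
CPM of each goblet cell product on a log axis, 1 point per library and 5 conditions, with a bar at the mean of 3 libraries; open triangles are libraries with 0 counts, drawn at 0.01. The 3 SOX9-Halo_spheroid libraries lie below the other 12 for all 7 genes, and Muc2 alone is also low in SOX9-mEGFP_spheroid, where it overlaps the lowest Halo-NLS library.

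Among the structural proteins of mucus, Muc2 was the most variable. In Halo-NLS it had 229.8, 615 and 18.4 CPM, a 33.4-fold range between libraries of 1 condition. The budding lines spread over 40.4, 559.8 and 72.9 CPM in SOX9-Halo_budding and over 809, 317 and 150.2 CPM in SOX9-mEGFP_budding. Control and budding libraries overlapped. SOX9-mEGFP_spheroid had 3.41, 26.7 and 59.1 CPM of Muc2, and SOX9-Halo_spheroid had 0.353, 0.141 and 0.161 CPM, which came from 10, 5 and 6 counts. Muc2 thus fell by 10.39 on the log2 scale in SOX9-Halo_spheroid against Halo-NLS (SE 1.76, n = 3 libraries each, edgeR adjusted p = 0.000191) with a log2 fold change of -7.11 against SOX9-mEGFP_spheroid (SE 1.60, adjusted p = 0.00409). The latter call was lost when any 1 SOX9-Halo_spheroid library or the third SOX9-mEGFP_spheroid library was left out, with log2 fold changes of -6.15 to -7.58 and adjusted p of 0.0133 to 0.0256.

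Fcgbp, the large Fc-gamma-binding protein of mucus, kept the most counts in SOX9-Halo_spheroid. Its level was 2069.7, 6306 and 1233 CPM in Halo-NLS, 953, 5989.6 and 1208 CPM in SOX9-Halo_budding and 6380.0, 4107 and 2511 CPM in SOX9-mEGFP_budding. It was 1203, 1511 and 2588 CPM in SOX9-mEGFP_spheroid, overlapping the control, with 1 library just below the lowest control library. In SOX9-Halo_spheroid 14.3, 19.6 and 21.4 CPM remained, from 405, 695 and 796 counts, and the log2 fold change against Halo-NLS was -7.44 (SE 0.87, adjusted p = 5.82e-06). Fcgbp held 83.7% to 93.2% of the summed CPM of the 7 genes in SOX9-Halo_spheroid, against 40.0% to 75.6% in the other 12 libraries, a share that also reflects its long transcript.

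The mucus-processing protease Clca1 and the lectin Zg16 varied widely between libraries of 1 condition in the control and both budding lines. In each of these conditions the third library was the lowest for both genes, and the cause was not tested. Clca1 had 13.6, 13.3 and 1.84 CPM in Halo-NLS, 12.4, 25.5 and 4.33 CPM in SOX9-Halo_budding and 36.6, 12.6 and 2.04 CPM in SOX9-mEGFP_budding. SOX9-mEGFP_spheroid had 14.2, 16.4 and 39.8 CPM of Clca1, all above the 3 control libraries. In SOX9-Halo_spheroid Clca1 was at 0.565, 0.197 and 0.241 CPM, with a log2 fold change of -4.86 against Halo-NLS (SE 1.09, adjusted p = 0.00192), the smallest decrease of the 7. Without the second or the third SOX9-Halo_spheroid library that call was lost, at adjusted p of 0.0121 and 0.0120 and log2 fold changes of -4.60 and -4.69. Clca1 also had the lowest Halo-NLS mean of the 7, at 9.55 CPM. Its mean in SOX9-Halo_spheroid, 0.334 CPM, was below those of Fcgbp, Tff3 and Spink4 and above those of Muc2, Agr2 and Zg16. Zg16 was at 69.2, 47.9 and 4.53 CPM in Halo-NLS, at 35.0, 56.2 and 7.50 CPM in SOX9-Halo_budding and at 132, 43.8 and 2.60 CPM in SOX9-mEGFP_budding. SOX9-mEGFP_spheroid had 27.7, 30.2 and 49.6 CPM, inside the control range. No Zg16 count was found in the 3 SOX9-Halo_spheroid libraries. Taking 3 counts per library as the limit that a count of 0 allows, which covers counting error only, Zg16 was at least 449-fold lower than in Halo-NLS (adjusted p = 0.000435), at least 365-fold lower than in SOX9-Halo_budding and at least 397-fold lower than in SOX9-mEGFP_spheroid.

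The secreted peptides Tff3 and Spink4 were more even between libraries. Tff3 had 872, 955 and 769 CPM in Halo-NLS, 754, 1035 and 234 CPM in SOX9-Halo_budding and 1534, 1103 and 663 CPM in SOX9-mEGFP_budding. It stayed at 678, 592 and 659.7 CPM in SOX9-mEGFP_spheroid and was at 1.13, 0.564 and 0.671 CPM in SOX9-Halo_spheroid. The change of Tff3 in SOX9-Halo_spheroid against Halo-NLS was -10.11 on the log2 scale (SE 0.62, adjusted p = 1.03e-08), with the lowest control library far above the highest spheroid library. Spink4 had 430.2, 304 and 243 CPM in Halo-NLS, 377, 557 and 136 CPM in SOX9-Halo_budding and 754, 674 and 375 CPM in SOX9-mEGFP_budding. SOX9-mEGFP_spheroid kept 352, 315 and 219 CPM of Spink4, whereas SOX9-Halo_spheroid had 0.529, 0.366 and 0.456 CPM, a log2 fold change of -9.49 against Halo-NLS (SE 0.60, adjusted p = 1.36e-08). Highest and lowest libraries of Halo-NLS differed 1.24-fold for Tff3 and 1.77-fold for Spink4, beside 7.38-fold for Clca1 and 15.3-fold for Zg16 in the same 3 libraries.

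Agr2, the endoplasmic reticulum disulfide isomerase, was as even as the peptides. It was measured at 178, 102 and 169 CPM in Halo-NLS, at 208, 166 and 76.0 CPM in SOX9-Halo_budding and at 305, 321 and 216 CPM in SOX9-mEGFP_budding. SOX9-mEGFP_spheroid had 323, 236 and 171 CPM, overlapping the control. SOX9-Halo_spheroid had 6, 7 and 1 counts, or 0.212, 0.197 and 0.0268 CPM, and the log2 fold change against Halo-NLS was -10.02 (SE 0.61, adjusted p = 9.53e-09).

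The size of the decrease depended on the comparison most for Muc2, whose log2 fold change was -10.39 against Halo-NLS, -10.03 against SOX9-Halo_budding and -7.11 against SOX9-mEGFP_spheroid. Against SOX9-Halo_budding the fitted log2 fold changes of the 6 members with counts ran from -5.42 for Clca1 to -10.03 for Muc2 and Agr2, and all 7 adjusted p were at most 0.00104. Against SOX9-mEGFP_spheroid they ran from -6.16 for Clca1 to -10.72 for Agr2, the latter with a mean of 243 ± 76.3 CPM (SD, n = 3) in one spheroid line and 0.145 ± 0.103 CPM in the other.

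Overexpressed SOX9 in budding organoids went with no called change of these genes. So small a share of all genes was called in these comparisons that 0 of 7 does not set the products apart. In SOX9-Halo_budding against Halo-NLS 0 of 7 were called in either direction (3.75% of all genes were), 0 had an unadjusted p under 0.05 in edgeR, and DESeq2 called 0. Log2 fold changes ran from -0.36 to 0.56, with the libraries of both conditions overlapping for all 7 genes (29.7% of all genes did not overlap). In SOX9-mEGFP_budding against Halo-NLS 0 of 7 were called (2.76% of all genes in either direction), 2 had an unadjusted p under 0.05, and DESeq2 again called 0. All 7 fitted changes were above 0 here, from 0.35 to 0.91, but under 13 alternative settings the direction turned 1 time for Muc2, 1 time for Clca1 and 2 times for Zg16. The libraries were apart for 1 of 7 members, against 32.5% of all genes, which was Agr2 at 281 ± 56.5 CPM against 149 ± 41.5 CPM (log2 fold change 0.91, SE 0.38, edgeR adjusted p = 0.109). Between the 2 budding lines 0 of 7 were called (0.456% of all genes), 1 had an unadjusted p under 0.05, and DESeq2 called 0. Agr2 was again the 1 member whose libraries did not overlap (12.0% of all genes), with a log2 fold change of -0.90 in SOX9-Halo_budding relative to SOX9-mEGFP_budding (SE 0.38, adjusted p = 0.495). In these 3 comparisons the SE was 1.11 to 1.12 for Muc2, 1.06 to 1.07 for Zg16 and 0.86 to 0.87 for Clca1. For these genes even changes well above 2-fold could not have been told from the spread.

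In SOX9-mEGFP_spheroid no goblet cell product passed the test against the control, and Muc2 had the largest fitted change. Against Halo-NLS 0 of 7 genes were called (12.1% of all genes lower, 15.3% higher, 27.5% in either direction, with 2133 lower and 2690 higher by TMM and 1500 lower and 3333 higher with library sizes alone), 1 had an unadjusted p under 0.05, and DESeq2 called 0. Muc2 had 29.7 ± 28.0 CPM against 288 ± 303 CPM, a log2 fold change of -3.27 that missed the threshold (SE 1.22, edgeR adjusted p = 0.0366), and the highest spheroid library was above the lowest control library. Without the third Halo-NLS library the value was -3.83 (adjusted p = 0.0159), and without the second one -2.06 (adjusted p = 0.171). The libraries did not overlap for 2 of 7 members, against 56.5% of all genes. Tff3 was one of them, at 643 ± 45.6 CPM against 865 ± 93.4 CPM (log2 fold change -0.43, SE 0.41, adjusted p = 0.398). Clca1 was the other, in the opposite direction, at 23.5 ± 14.2 CPM against 9.55 ± 6.68 CPM (log2 fold change 1.30, SE 0.88, adjusted p = 0.230). Agr2, Spink4, Fcgbp and Zg16 overlapped the control, and the fitted direction of Spink4, Fcgbp and Zg16 changed under 3, 1 and 4 of 13 alternative settings. Missing the threshold does not show that the levels were alike.

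Within the SOX9-mEGFP line, the comparison of spheroids with budding organoids also gave 0 of 7 called genes, against 16.4% of all genes in either direction. In edgeR 2 members had an unadjusted p under 0.05, and DESeq2 called 0. The libraries did not overlap for 2 of 7 members, against 46.0% of all genes. Muc2 was lower in 3 of 3 spheroid libraries than in the lowest budding library, with a log2 fold change of -3.84 (SE 1.25, adjusted p = 0.0310). Spink4 was apart as well, at 295 ± 68.7 CPM against 601 ± 200.1 CPM (log2 fold change -1.02, SE 0.40, adjusted p = 0.0745). The other 5 members overlapped, with log2 fold changes between -1.29 for Fcgbp and 0.46 for Clca1.

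**Figure D2:**
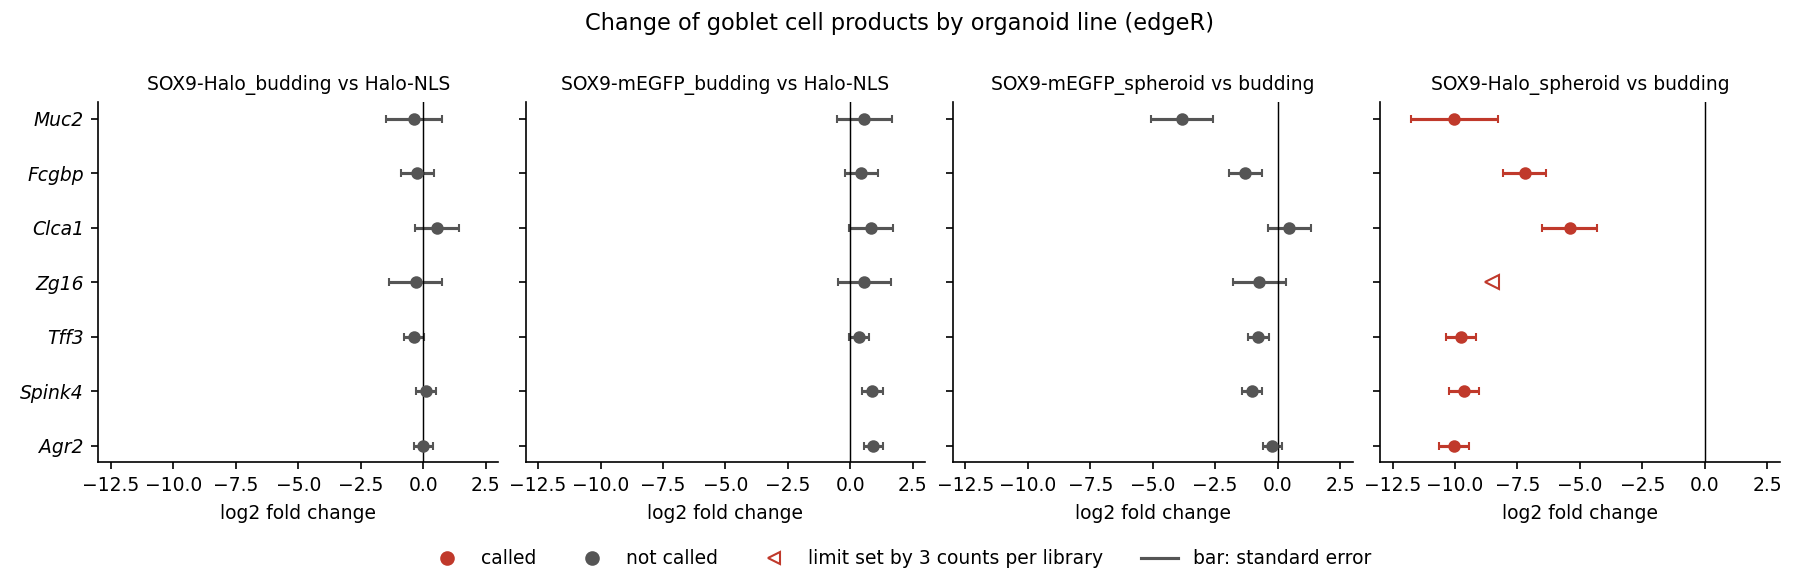
Fitted log2 fold change of each goblet cell product with its standard error in 4 edgeR comparisons (3 libraries per condition), red where called; the open triangle is the limit for Zg16, which had 0 counts. Values lie within 1 of 0 in both budding lines, Muc2 stands alone at -3.84 in the SOX9-mEGFP line, and all 7 lie at -5.42 or lower in the SOX9-Halo line.

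The difference between the lines in their budding-to-spheroid change was tested directly, as an interaction in the same fit. All 7 fitted differences were below 0, and 6 of 7 products were called, where 5.58% of all genes were called in that direction. In the SOX9-mEGFP line Clca1 had a fitted rise (0.46) that was not called. Agr2 gave a difference of log2 fold changes (SOX9-Halo minus SOX9-mEGFP) of -9.82 (SE 0.70, adjusted p = 3.98e-07), Tff3 one of -8.98 (SE 0.69, adjusted p = 7.91e-07) and Spink4 one of -8.60 (SE 0.68, adjusted p = 9.40e-07). Fcgbp followed with -5.91 (SE 1.01, adjusted p = 0.000931) and Clca1 with -5.88 (SE 1.39, adjusted p = 0.00988). For Zg16 the 3-count limit gave a difference of at most -7.78 (adjusted p = 0.00915). Muc2 had a difference of -6.19 (SE 1.91) and was not called at an adjusted p of 0.0449. Its fitted change within the SOX9-mEGFP line was -3.84, also not called. Calls of Agr2, Tff3, Spink4 and Fcgbp held when any 1 of the 12 libraries was left out, whereas Clca1 and Zg16 lost theirs in most of these settings and the number of members called ranged from 4 to 6.

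**Figure D3:**
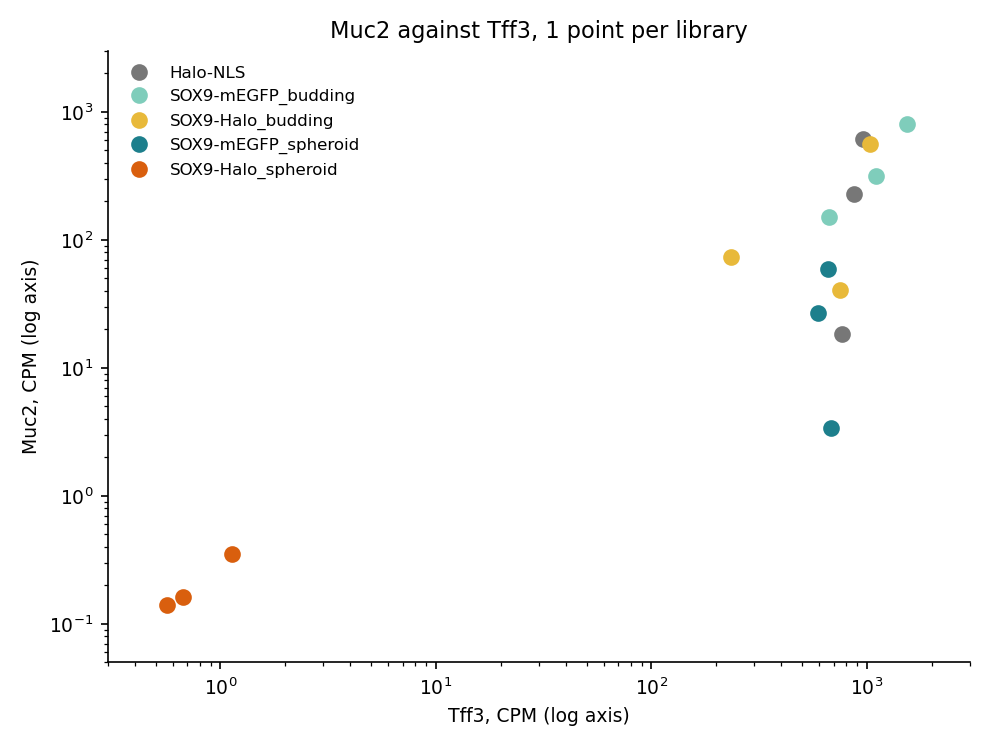
CPM of Muc2 against CPM of Tff3, 1 point per library, both on log axes and not corrected for gene length. Control and budding libraries share 1 range of Tff3 while Muc2 spreads widely, the 3 SOX9-mEGFP_spheroid libraries have Tff3 of 592 to 678 CPM with 3.41 to 59.1 CPM of Muc2, and the 3 SOX9-Halo_spheroid libraries are low in both.

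Proportions between members also varied. For each 100 CPM of Tff3 there were 2.40 to 64.4 CPM of Muc2 in Halo-NLS, 5.36 to 54.1 in SOX9-Halo_budding and 22.6 to 52.7 in SOX9-mEGFP_budding. SOX9-mEGFP_spheroid had 0.503 to 8.96, and SOX9-Halo_spheroid, on few counts, had 24.0 to 31.2. Agr2 had 10.6 to 21.9 CPM per 100 CPM of Tff3 in Halo-NLS and 25.9 to 47.6 in SOX9-mEGFP_spheroid. Shares and ratios of CPM follow gene length as well as abundance, so the order of the members was taken after division by exon length. On this scale of CPM per kilobase, Tff3 was the highest in Halo-NLS with 1677 on average, followed by Spink4 (458), Fcgbp (305), Agr2 (111), Zg16 (28.8), Muc2 (20.7) and Clca1 (2.53). The ranges of Spink4 and Fcgbp, of Fcgbp and Agr2, of Zg16 and Muc2 and of Muc2 and Clca1 overlapped between the 3 control libraries, so these neighbours were not separated beyond their spread. The order was the same in both budding lines. In SOX9-mEGFP_spheroid Agr2 (181) stood before Fcgbp (168), with overlapping ranges, and Muc2 (2.14) was last, after Clca1 (6.22), again with overlapping ranges. In SOX9-Halo_spheroid Fcgbp (1.75) and Tff3 (1.53) were highest, also overlapping, followed by Spink4 (0.633).

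Other genes of the goblet cell program were read from lists of fixed membership. Counts of every list against Halo-NLS stand beside 15.3% of all genes called lower and 13.6% higher in SOX9-Halo_spheroid. In SOX9-mEGFP_spheroid these shares were 12.1% and 15.3%. In SOX9-Halo_spheroid against Halo-NLS, 15 of 21 tested goblet-enriched genes other than the members were called lower and 2 higher, with a median log2 fold change of -5.02 (-4.52 with genes at their count limit). The chloride channel relative Clca4b was at 0.216 CPM against 237 CPM (log2 fold change -10.03), the lectin Itln1, also a Paneth cell product, at 3.12 CPM against 527 CPM, and guanylin (Guca2a) at 2.06 CPM against 161 CPM. Ttc39a (log2 fold change 2.83) and the granule-docking protein Sytl4 (3.12) rose. In SOX9-mEGFP_spheroid against Halo-NLS the same list was divided, with 9 genes lower and 8 higher and a median of -0.05. Itln1, Clca4b and Guca2a fell there too, by 7.94, 3.35 and 1.93 on the log2 scale, whereas 0 of the 7 members were called. Against SOX9-mEGFP_budding the list was less divided, with 10 genes lower and 2 higher and a median of -1.17. Of all genes, 16.4% were called in either direction in that comparison.

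Factors that govern the goblet lineage were lower in SOX9-Halo_spheroid for 8 of 14 genes tested and higher for 1 (median log2 fold change -1.77). Of all genes, 15.3% were called lower and 13.6% higher there. Atoh1, which opens the secretory lineage, was at 0.0212 CPM against 6.76 CPM in Halo-NLS, at least 74.9-fold lower. Spdef, a driver of goblet maturation, was at 4.01 CPM against 24.3 CPM (log2 fold change -2.60, adjusted p = 7.11e-06), and the intestinal factors Cdx2 (-7.35) and Hnf4a (-4.61) fell as well, while Foxa1 (1.43) rose, a call lost without the third Halo-NLS (1.19) or the third SOX9-Halo_spheroid library (1.24), and the Notch target Hes1 (-0.94) was not called. In SOX9-mEGFP_spheroid 5 of the 14 were lower and 1, Klf4, was higher (log2 fold change 1.46), a call lost without the third SOX9-mEGFP_spheroid library (1.28). Atoh1 was at 9.13 CPM there against 6.76 CPM (log2 fold change 0.43, adjusted p = 0.219), and Spdef at 12.4 CPM against 24.3 CPM (log2 fold change -0.98, adjusted p = 0.0133). Cdx2 (-2.51) and Hnf4a (-1.36) fell less than in the other spheroid line, and the direct comparison of the spheroids called both of them, Atoh1 and Spdef lower in SOX9-Halo_spheroid. Of the 14, it called 8 lower and 1, Dll1, higher (9.58% of all genes lower, 3.59% higher). Dll1 was called lower in both spheroids against Halo-NLS. Against SOX9-mEGFP_budding, SOX9-mEGFP_spheroid had 5 of the 14 lower, Spdef among them, and 0 higher (16.4% of all genes in either direction).

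The machinery that folds and glycosylates mucins did not move as one with the products. Of 21 folding and endoplasmic reticulum stress genes, 3 were lower in SOX9-Halo_spheroid against Halo-NLS (15.3% of all genes) and 1 was higher (13.6% of all genes). The lower ones were Agr3, Ern2 and, in 7 of 13 alternative settings, Pdia5, and the higher one was Dnajc10. These counts were no more than the shares over all genes would give. The median was -0.13, which lay between -0.19 and 0.16 over 13 alternative settings. Ern2, the stress sensor of goblet cells, was at 0.474 CPM against 9.71 CPM, and Agr3, the paralog of Agr2, was at least 6.47-fold lower. The general chaperones Calr (log2 fold change 0.12), Hspa5 (0.33) and Pdia3 (0.78) were not called. In SOX9-mEGFP_spheroid 0 of the 21 were lower and 5 higher, with 2 to 7 higher over the 13 settings, beside 15.3% of all genes called higher. Pdia3 (1.02) and Fkbp11 (1.01) were at the fold threshold and lost their calls in 7 of 13 settings each, and Kdelr3 (1.69) in 5. Of 19 genes of mucin O-glycosylation, 7 were lower and 3 higher in SOX9-Halo_spheroid (median -0.80), and 5 were lower and 8 higher in SOX9-mEGFP_spheroid (median 0.82). The core 2 branching enzymes Gcnt1 (log2 fold change 7.54 in SOX9-Halo_spheroid and 8.62 in SOX9-mEGFP_spheroid) and Gcnt3 (2.45 and 4.00) rose in both, as did the fucosyltransferase Fut2 (4.29 and 5.72). The sialyltransferase St3gal4 fell in both (-2.99 and -1.97), but its call in SOX9-mEGFP_spheroid was lost without the second Halo-NLS library or any 1 SOX9-mEGFP_spheroid library (log2 fold changes of -1.75 to -2.10). B3gnt3 was called higher in SOX9-mEGFP_spheroid at the fold threshold (1.03) and was not called in 6 of 13 settings, among them RLE scaling (0.98) and DESeq2 (0.99). Among other mucins and trefoil factors, 4 of 8 tested fell in SOX9-Halo_spheroid and 0 rose, and the transmembrane mucin Muc13 went from 597 CPM to 0.713 CPM, while Muc17 was at least 278-fold and Muc3a at least 43.6-fold lower. Muc13 kept 248 CPM in SOX9-mEGFP_spheroid (log2 fold change -1.27, adjusted p = 0.0171), where Muc3a was the 1 gene of this list called lower and Muc1 the 1 called higher. Against SOX9-mEGFP_budding, SOX9-mEGFP_spheroid had 2 folding genes lower, Agr3 and Ern2 (0 to 2 over the 13 settings), and 3 higher. Glycosylation genes were lower for 5 and higher for 4 there, Muc13 and Muc3a were lower, and Muc1 was higher. These calls stand beside 16.4% of all genes called in either direction.

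**Figure D4:**
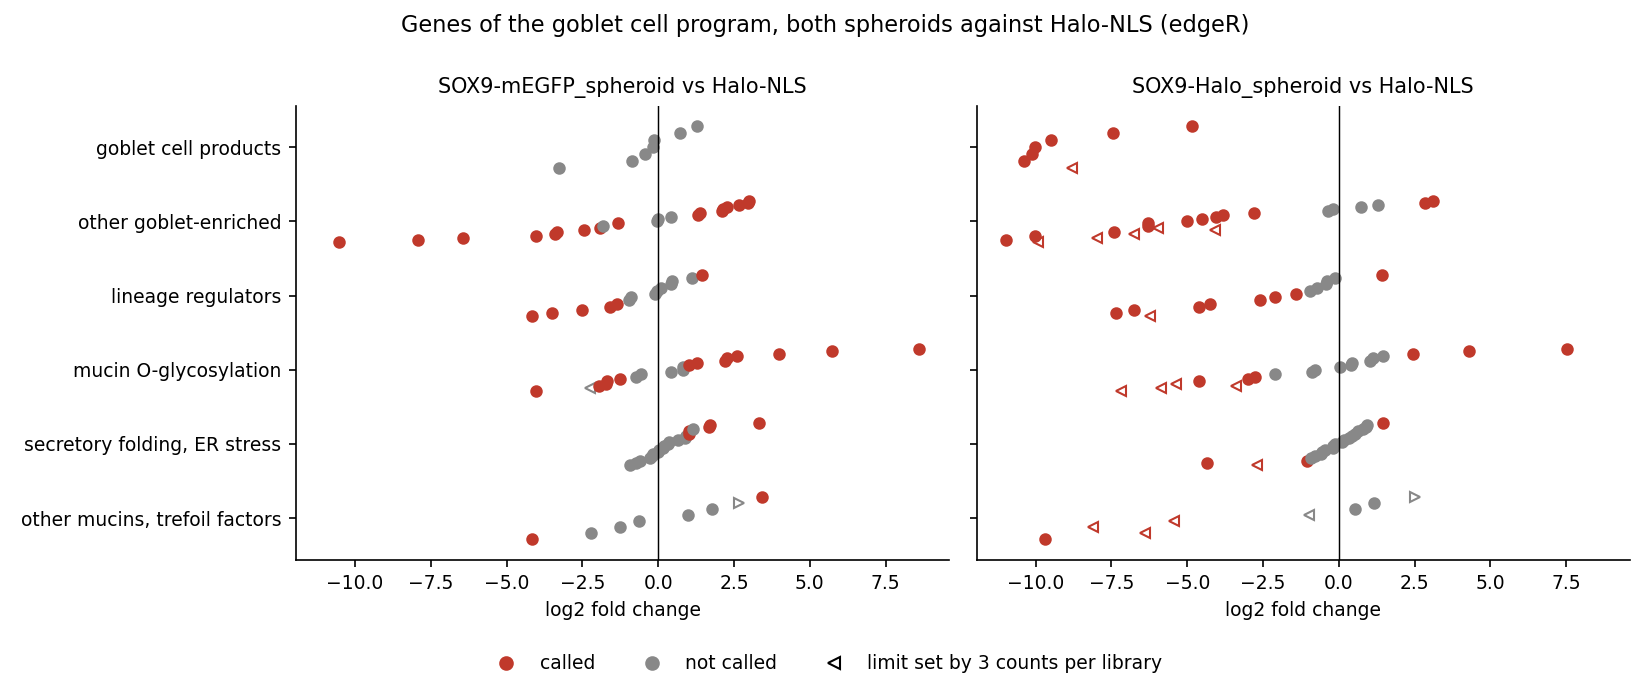
Log2 fold changes against Halo-NLS (edgeR) for the genes of 6 lists, 1 point per gene, left for SOX9-mEGFP_spheroid and right for SOX9-Halo_spheroid; red points are called and open triangles are limits set by 3 counts per library. The 7 products are all called lower on the right and none is called on the left, while the folding genes lie around 0 on both sides.

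The loss was not particular to goblet cell products. Summed levels of 6 enterocyte markers were 12154 to 23010.0 CPM in Halo-NLS, 256 to 898 CPM in SOX9-mEGFP_spheroid and 4.26 to 13.4 CPM in SOX9-Halo_spheroid. Enteroendocrine markers (7 genes) went from 341 to 1063 CPM in Halo-NLS to 1.11 to 3.49 CPM and 0.225 to 0.563 CPM in the same 2 spheroids. All 6 and all 7 of these markers were called lower in both. Of all genes, 15.3% were called lower in SOX9-Halo_spheroid and 12.1% in SOX9-mEGFP_spheroid. In SOX9-mEGFP_spheroid, therefore, enterocyte and enteroendocrine markers fell against Halo-NLS while no goblet cell product was called. Of the 6 Paneth cell markers, 6 were lower in SOX9-Halo_spheroid and 5 in SOX9-mEGFP_spheroid, where Mmp7 rose from 13.9 CPM to 1246 CPM. Of 4 tuft cell markers tested 1 was lower in either spheroid line, and of 5 stem cell markers 2 were lower in SOX9-Halo_spheroid, with 1 lower and 1 higher in SOX9-mEGFP_spheroid. Epithelial markers were detected in every library but did not all keep their level. Of 7, Vil1 (log2 fold change -3.58), Cldn7 (-1.87) and Epcam (-1.11) were called lower in SOX9-Halo_spheroid and Krt18 (1.58) higher, and Krt18 (1.93) was the 1 called in SOX9-mEGFP_spheroid. Their sum, in which the keratins weigh most, was 7087 to 10408 CPM in Halo-NLS, 11895 to 12176 CPM in SOX9-mEGFP_spheroid and 6191 to 6844 CPM in SOX9-Halo_spheroid. Markers of cells outside the epithelium summed to at most 1.54 CPM in any library, and those of gastric mucous cells to at most 15.2 CPM. What part these shifts in cell types had in the levels of the goblet cell products was not tested.

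The genes whose pattern was most like the mean of the 7 products over the 15 libraries, among those with a mean normalised count of at least 100, were Slc41a2 (Pearson r = 0.987), Lgals9 (0.985), Myo15b (0.985), Snrpn (0.985) and Npc1l1 (0.983). These values describe the 15 libraries, which include the gap between SOX9-Halo_spheroid and the rest: Npc1l1, for example, was at 0.620 to 0.847 CPM there and at 146 to 867 CPM elsewhere. Each product was compared in the same way with the mean of the other 6, which gave r from 0.897 for Muc2 to 0.982 for Tff3. Over the 12 libraries without SOX9-Halo_spheroid the same values ran from 0.362 for Agr2 and 0.503 for Muc2 to 0.829 for Tff3.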

How the data were processed

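Poly-A RNA of 15 libraries was sequenced. Per the labels and the study's methods, the authors trimmed reads with cutadapt 4.5, aligned them to GRCm39 with STAR keeping unique alignments, and deposited raw counts per gene from HTSeq 2.0.2, counted without strand. The authors' DESeq2 tables hold their own comparisons (mean, fold change and p-value) and were not used. Groups followed the labels.

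Counts were fitted with edgeR 4.0.16 (limma 3.58.1, R 4.3.3): TMM scaling, low-count filter by condition, 1 coefficient per condition over all 15 libraries, quasi-likelihood test, Benjamini-Hochberg adjustment over 17560 genes. Genes were called where the adjusted p did not exceed 0.01, the change reached 2-fold and the normalised count averaged 10 or more. Alternatives were DESeq2 1.42.0, other scalings, filters, thresholds and library sets, a replicate block, and leaving out each library. The fit was tested on simulated data. Exon lengths came from GENCODE M39, which held 78168 of 78298 identifiers. Tables and plots used Python 3.11.15, pandas 2.3.3, numpy 2.4.6 and matplotlib 3.10.9.

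The 7 members and all lists were chosen with earlier results of these data known. Named were the members, Sox9, the 3 most abundant genes of each goblet program list, called genes against a list's majority (up to 3), and the 5 genes most like the members. Atoh1, Spdef, Ern2, Agr3, Pdia5, Gcnt1, Fut2 and other genes beyond that rule were named after their values were seen. Same-numbered libraries deviated together (every r above 0.1) in 1 of 10 pairs of conditions, SOX9-Halo_budding with SOX9-Halo_spheroid (r = 0.275, 0.162 and 0.240). Single r were higher elsewhere, as for Halo-NLS with SOX9-Halo_budding (0.362, 0.646 and 0.0611) and SOX9-Halo_budding with SOX9-mEGFP_budding (0.0442, 0.288 and 0.618). Of 30 pairs of same-numbered libraries, 16 had r above 0.1, so a shared replicate effect was not excluded.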

Additional observations from a re-analysis of the deposited data

Results flagged for a closer look

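The SOX9-Halo and SOX9-mEGFP lines differed in their budding-to-spheroid change for 6 of the 7 goblet cell products by the test of the difference itself (edgeR interaction). Of all genes, 5.58% were called in that direction. The difference of log2 fold changes, SOX9-Halo minus SOX9-mEGFP, was -9.82 for Agr2, -8.98 for Tff3, -8.60 for Spink4, -5.91 for Fcgbp and -5.88 for Clca1. For Zg16 it was at most -7.78, a limit set by 3 counts per library. Clca1 and Zg16 were close to the threshold and lost their calls in most settings that left out 1 library. Each spheroid line carried its own second transgene, and the study places SOX9-Halo_spheroid later in culture than SOX9-mEGFP_spheroid. The part of either in these differences was not tested.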

How the results depend on the processing

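Of 497 alternative fold changes of members given with a test, 460 kept their direction and their side of the threshold, 30 lost their call and 7 gained one. Among the 36 uncalled pairs of member and comparison the direction turned in 43 of 474 alternative values, spread over 17 pairs. The number of products called lower stayed at 7 against SOX9-Halo_budding. Leaving out 1 library gave 6 to 7 against Halo-NLS (Clca1 lost) and 6 to 7 against SOX9-mEGFP_spheroid (Muc2 lost). For the line difference it gave 4 to 6, with 4 to 7 over all settings and 5 under RLE scaling. In SOX9-mEGFP_spheroid against Halo-NLS, 1 product was called lower at an adjusted p of at most 0.05 and 1 without the low-count filter (Muc2 both times), and 1 higher without the filter (Clca1). Against SOX9-mEGFP_budding, 1 was called lower at an adjusted p of at most 0.05 (Muc2) and 3 without the filter (Muc2, Spink4 and Fcgbp). With a replicate block on the libraries compared, 1 was called lower there (Spink4). The cause was not tested. For SOX9-Halo_spheroid against SOX9-Halo_budding, where same-numbered libraries deviated together, the replicate block also called 7. In other pairs of conditions only some same-numbered libraries deviated together. The line difference kept 6 calls with the block over all libraries and 4 over the libraries compared. Of 2072 values of listed genes, 138 were no longer called. Few counts in SOX9-Halo_spheroid limit its levels of all members but Fcgbp.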
